A study of Mus musculus with 3 samples.

Results

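The genes of the proteasome were examined for NR2F2 binding at their promoters. The members were all genes with a curated RefSeq transcript of GRCm38 whose symbol begins with Psma, Psmb, Psmc, Psmd, Psme, Psmf or Psmg, with pseudogenes dropped, which gave 51 of 21000 protein-coding genes. A peak was assigned to a gene when its nearer edge lay within 1 kb of a transcription start site (TSS) of that gene. By this rule, 18 of the 51 genes had a peak, and 19 of all 10069 peaks were proteasome peaks.

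NR2F2, also named COUP-TFII, is a nuclear receptor, and ChIP-seq (sequencing of DNA immunoprecipitated with an antibody to it) was performed on whole testes of E14.5 CD-1 mouse embryos, freed of the mesonephros and pooled at 30 testes. There were 2 NR2F2 ChIP libraries, from separate immunoprecipitations, and 1 input library of chromatin sequenced without immunoprecipitation, and the same 300 bp peaks were counted in all 3. The counts at peaks summed to 426784 in ChIP replicate 1, 364261 in ChIP replicate 2 and 73251 in the input, with medians of 37, 31 and 7 per peak. Because whole testes were used, fewer cells with NR2F2 on a promoter and less NR2F2 per cell cannot be told apart, and counts of genomic DNA at peaks could not be checked against expression markers of the tissue.

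The proteasome is the protease that degrades proteins tagged with ubiquitin in the cytosol and nucleus of every cell. Its 20S core is a barrel with outer rings of alpha subunits, which gate the entry, and inner rings of beta subunits, of which Psmb5, Psmb6 and Psmb7 carry the catalytic sites. The 19S particle caps the barrel, and its ATPases unfold substrates while its non-ATPase subunits bind and remove ubiquitin. Dedicated chaperones assemble both particles, and NFE2L1 is a transcription factor known to raise proteasome gene expression through antioxidant response elements. In the testis, some germ cells have a core with Psma8 in place of Psma7, and whether those at E14.5 do was not examined here.

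COUP-TF proteins bind copies of AGGTCA or close variants. The sites below are shown because they are the matches to the core motif (AGGTCA or GGGTCA, on either strand) nearest to the centre of each proteasome peak that held one, with Psma6 and Psmg1 represented by the extended motif (AGAGGTCA or AGGGGTCA), which always contains a core match. Each is read 5′ to 3′ on the stated strand of mm10 (GRCm38), with the match in capitals and at most 12 bases of the peak on either side.
Psma6 (chr12:55398572-55398601, plus strand): atactgtctccAGAGGTCAcaagtaggcaa
Psmg1 (chr16:95990739-95990768, minus strand): gctggcgcggaAGAGGTCAggctcccggaa
Psma2 (chr13:14613115-14613135, plus strand): gcgcatgcgcaaGGGTCAaag
Psma3 (chr12:70974724-70974753, plus strand): ccgcggcctgccGGGTCAgcaccatgagct
Psmc2 (chr5:21784980-21785009, plus strand): ggcacgtaccggAGGTCAgagcgtgggtga
Psmc4 (chr7:28050122-28050151, minus strand): atccggcccgtcAGGTCAacccgcagcggt
Psmd3 (chr11:98683049-98683078, plus strand): tcaatggagctgGGGTCAgaagtgcccgcc
Psmd13 (chr7:140881834-140881863, plus strand): acggcgcctagaGGGTCAagcgccatccga
Psmc3ip (chr11:101095557-101095586, plus strand): ggccttagtgacAGGTCAgcggccgcctcc
The Psmc2 site lies in the first of its 2 peaks. Among the proteasome peaks, 9 of 19 (47.4%) held a core match, against 47.8% of the 5654 peaks within 1 kb of any protein-coding TSS (promoter peaks) and 58.9% of all peaks. The extended motif was present in 2 of 19 (10.5%), against 6.07% of promoter peaks and 10.5% of all peaks. The core motif was thus about as frequent at proteasome peaks as at promoter peaks in general, and a match is a description of letters, not a measured site of contact.

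The peaks at Psmd3, a subunit of the 19S lid, and Psmd5, a chaperone of the 19S base, are shown whole because they lay beside the TSS and not over it, one with and one without a core match.
Psmd3 (chr11:98682819-98683118, plus strand): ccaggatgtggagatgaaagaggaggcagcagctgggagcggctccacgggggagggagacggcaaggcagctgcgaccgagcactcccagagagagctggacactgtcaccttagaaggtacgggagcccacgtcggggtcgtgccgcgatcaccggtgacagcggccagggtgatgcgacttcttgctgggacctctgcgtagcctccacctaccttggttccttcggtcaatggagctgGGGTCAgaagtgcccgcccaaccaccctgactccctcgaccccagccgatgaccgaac
Psmd5 (chr2:34871070-34871369, plus strand): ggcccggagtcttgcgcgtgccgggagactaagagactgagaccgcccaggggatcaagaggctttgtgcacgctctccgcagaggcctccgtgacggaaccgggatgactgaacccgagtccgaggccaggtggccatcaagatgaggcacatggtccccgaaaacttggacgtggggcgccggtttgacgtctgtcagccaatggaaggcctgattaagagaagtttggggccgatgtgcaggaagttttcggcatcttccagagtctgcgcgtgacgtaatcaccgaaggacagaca
Psmd3 held its core match 95 bp from the centre of the peak, whereas the 300 bases at Psmd5 had none on either strand.

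**Figure D1:**
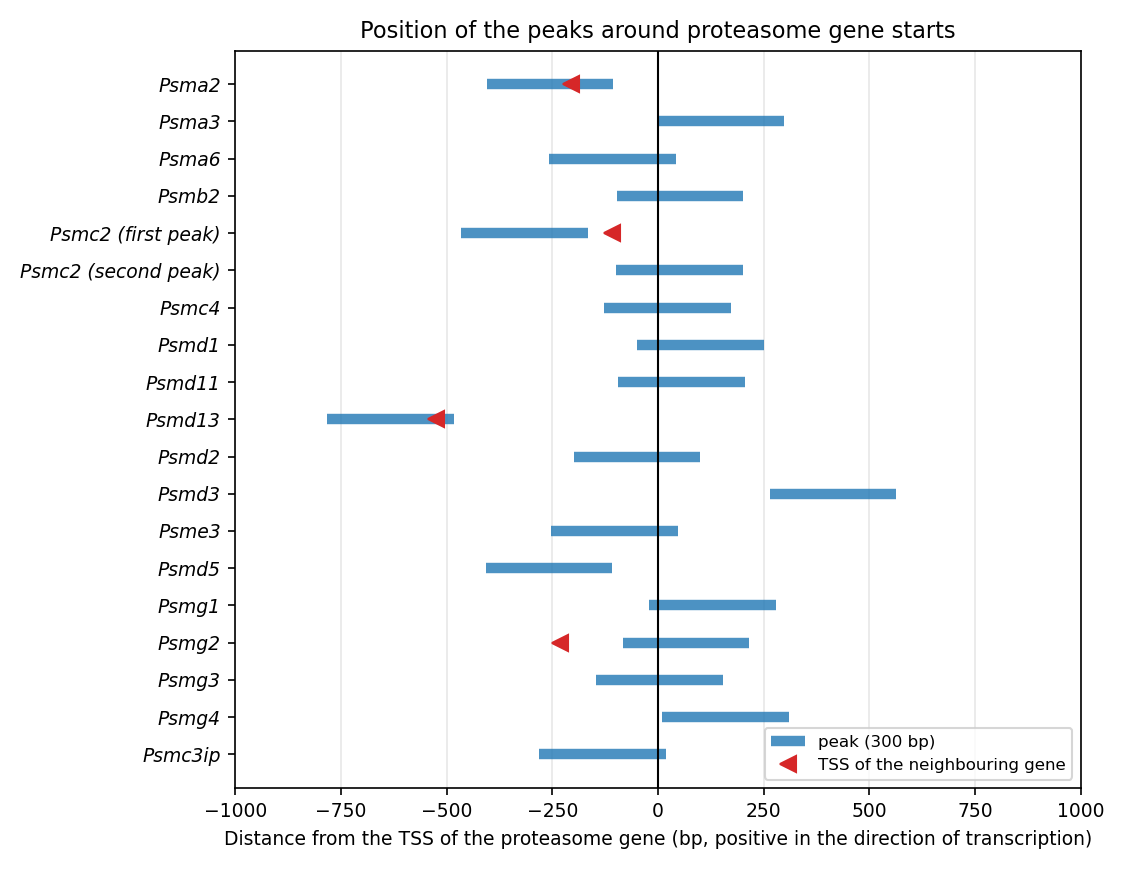
Position of the 19 proteasome peaks (bars, 300 bp each) relative to the nearest TSS of the proteasome gene, in bp and oriented so that transcription runs to the right, with the TSS of a neighboring gene as a red arrowhead. Of the 19 bars, 13 cross the gene's own TSS, and the bars of Psma2, Psmd13 and the first Psmc2 peak lie nearer to the neighboring TSS.

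The peaks lay close to the start sites, although the rule would have taken any within 1 kb. Of the 19 peaks, 13 (68.4%) overlapped the TSS of their proteasome gene, while 2302 of the 5654 promoter peaks (40.7%) overlapped a protein-coding TSS. The rules differ, as the second share takes any protein-coding TSS. By that rule the Psma2 and Psmd13 peaks, which overlapped the TSS of a neighboring gene, would count as well. The midpoints ran from -634 to 414 bp from the TSS, negative values being upstream, with a median distance of 108 bp in either direction, and 11 lay downstream and 8 upstream. The plot of peak positions shows 4 peaks (21.1%) with the TSS of another gene also within 1 kb, against 1026 promoter peaks (18.1%). In all 4 the neighbor was transcribed away from the proteasome gene, from a start 110 to 525 bp distant. These peaks cannot be assigned to either gene of the pair from their position.

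The 4 shared promoters were those of Psma2, Psmc2, Psmd13 and Psmg2. The Psma2 peak overlapped the TSS of Mrpl32, a mitochondrial ribosomal protein, and stopped 107 bp short of that of Psma2. The Psmd13 peak overlapped the TSS of Sirt3, a mitochondrial deacetylase, and its edge was 485 bp from Psmd13, which was the longest distance inside the 1 kb limit. The first Psmc2 peak lay 56 bp from the TSS of Dnajc2, a ribosome-associated chaperone, and 166 bp from that of Psmc2. The Psmg2 peak overlapped the TSS of Psmg2 and was 149 bp from that of Cep76, a centrosomal protein. Just outside the limit, at 1047 bp, was a peak in an intron of Psmb10, an immunoproteasome subunit, with 67 and 64 ChIP counts and 19 input counts.

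Among the 51 genes, 18 (35.3%) had a promoter peak, against 5894 of the 21000 protein-coding genes (28.1%), so the share of proteasome genes was somewhat above the background of all genes. When the peak had to overlap the TSS, the shares were 13 of 51 (25.5%) and 2390 of 21000 (11.4%). Most of the genes with a peak had promoters rich in CpG dinucleotides, read over 300 bp around the most upstream TSS: 5084 of the 11056 protein-coding genes with such a promoter (46%) had a peak, against 810 of the other 9944 (8.15%). Of the proteasome genes, 44 had a CpG-rich promoter and 17 of these (38.6%) had a peak, which was below the 46% of all CpG-rich genes. Over the TSS itself the order turned, with 12 of 44 (27.3%) against 18.8%. The only bound member without a CpG-rich promoter was Psma6, whose peak overlapped its downstream TSS and not the upstream one. The Psma6 peak itself had 64.7% GC and a ratio of observed to expected CpG of 0.71, so its class describes the upstream start only. These shares describe genes, which are not replicates, and were not tested.

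**Figure D2:**
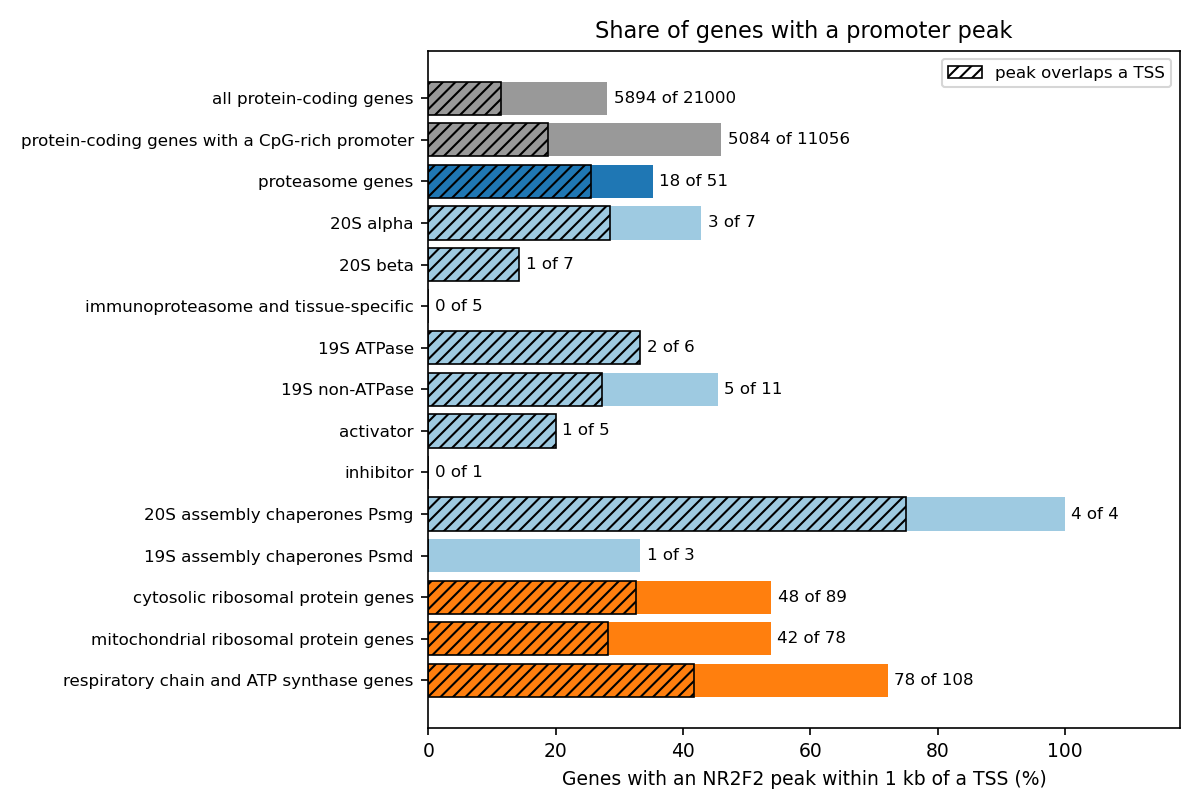
Share of genes (%) with an NR2F2 peak within 1 kb of a TSS, with the number of genes beside each bar and the hatched part showing genes whose TSS is overlapped by a peak. Proteasome genes (dark blue, 18 of 51) lie between all protein-coding genes and the ribosomal and respiratory chain genes (orange), and among the roles (light blue) the bars run from 0 of 5 for immunoproteasome and tissue-specific subunits to 4 of 4 for the Psmg chaperones.

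Other large complexes of housekeeping genes had higher shares than the proteasome. A peak was present at 48 of 89 cytosolic ribosomal protein genes (53.9%), 42 of 78 mitochondrial ribosomal protein genes (53.8%) and 78 of 108 genes of the respiratory chain and ATP synthase (72.2%). Among genes with a peak, however, the peak overlapped the TSS in 72.2% of the proteasome genes, against 60.4%, 52.4% and 57.7% of these groups in the same order and 40.5% of all bound protein-coding genes.

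The roles have few genes each, and their counts are given beside the 28.1% of all protein-coding genes and the 46% of CpG-rich genes with a peak, without a test. Of the standard alpha subunits, 3 of 7 had a peak (Psma2, Psma3 and Psma6), and of the standard beta subunits 1 of 7 (Psmb2). None of the 3 catalytic beta subunits was among them. The 3 immunoproteasome subunits Psmb8, Psmb9 and Psmb10, which replace the catalytic subunits in immune cells, had no peak, nor did the germ cell subunit Psma8 or the thymus subunit Psmb11. In the 19S particle, 2 of 6 ATPases (Psmc2 and Psmc4) and 5 of 11 non-ATPase subunits (Psmd1, Psmd2, Psmd3, Psmd11 and Psmd13) were bound. Of the activators, which open the core without ATP, 1 of 5 had a peak (Psme3), and the inhibitor Psmf1 had none. Of the chaperones, 5 of 7 had a peak, made up of all 4 Psmg genes and 1 of the 3 Psmd chaperones (Psmd5). The last 2 genes match the rule by symbol only: Psmc3ip, a factor of meiotic recombination, had a peak, and Psme3ip1, which binds the activator Psme3, had none.

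**Figure D3:**
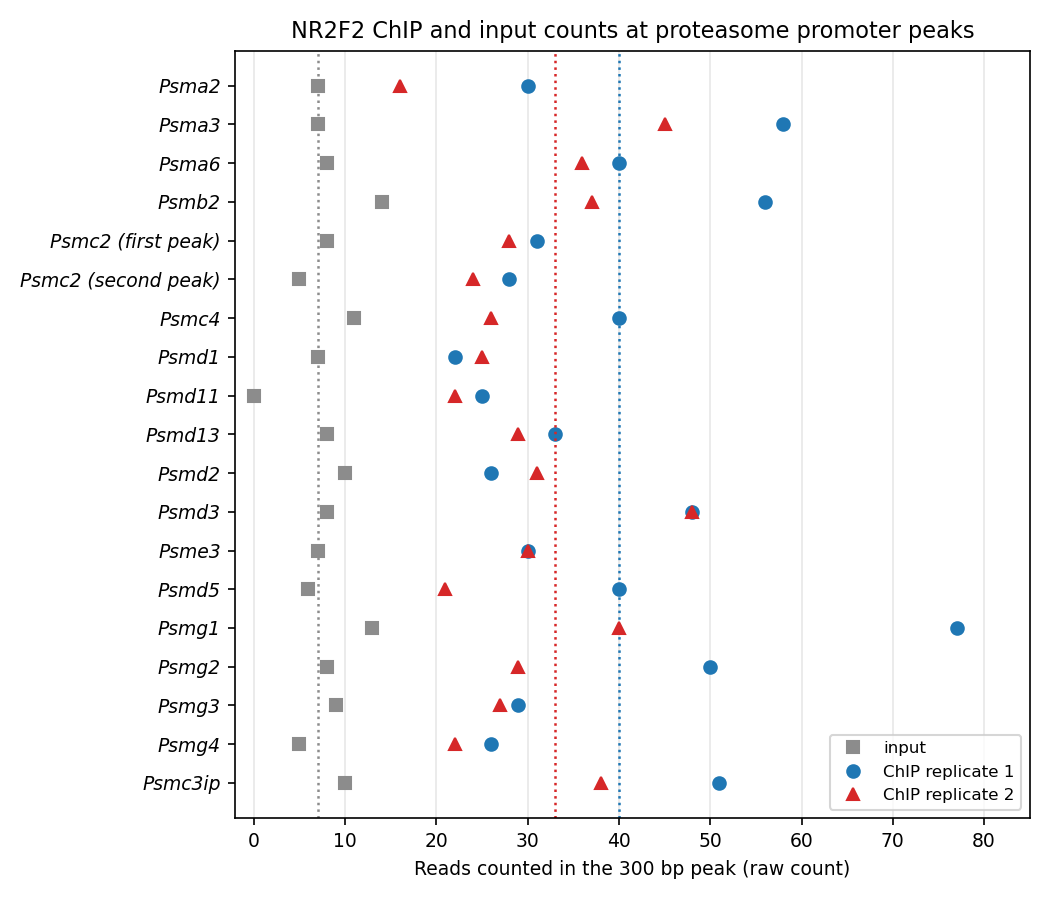
Raw counts of reads in each of the 19 proteasome peaks in ChIP replicate 1 (blue circles), ChIP replicate 2 (red triangles) and input (gray squares), with dotted lines at the median of all 5654 promoter peaks in the same library. The ChIP counts lie above the input count at all 19 peaks, and most lie below the dotted median of their own library. At Psmd3 and Psme3 the symbols of both replicates coincide.

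Read counts at each peak are given in the order ChIP replicate 1, ChIP replicate 2 and input. Among the alpha subunits, the peak of Psma3 (chr12:70974621-70974920, intron) held 58, 45 and 7 counts. That of Psma6 (chr12:55398568-55398867) held 40, 36 and 8. That of Psma2 (chr13:14612836-14613135, within a coding exon of Mrpl32) held 30, 16 and 7, the lowest count of replicate 2 among the members. Both ChIP libraries exceeded the input at all 3 genes. The standard beta subunit Psmb2 (chr4:126677545-126677844, 5′ UTR) had 56, 37 and 14 counts, the highest input count of the 19 peaks.

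In the ATPase ring, the peak over the downstream TSS of Psmc2 (chr5:21786647-21786946) held 28, 24 and 5 counts, and the one shared with Dnajc2 (chr5:21784810-21785109) held 31, 28 and 8. Psmc4 (chr7:28049921-28050220, 5′ UTR) had 40, 26 and 11. In replicate 2 these 3 peaks ran from 24 to 28, below its median of 33 at promoter peaks (peaks within 1 kb of any protein-coding TSS).

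Among the non-ATPase subunits, the scaffold subunits Psmd1 (chr1:86064570-86064869, 5′ UTR) and Psmd2 (chr16:20651453-20651752, upstream of the gene at its midpoint) had 22, 25 and 7 counts and 26, 31 and 10 counts. Psmd3 (chr11:98682819-98683118, intron) had 48, 48 and 8. Psmd13 (chr7:140881610-140881909, in an intron of Sirt3) had 33, 29 and 8. Psmd11, the lid subunit that clamps the 19S particle to the core, had 25, 22 and 0 counts (chr11:80428521-80428820, coding exon). Against the floor of 3 input counts that a count of 0 allows, its ChIP counts were 8.33-fold and 7.33-fold higher. The floor covers the counting error of the input only, leaves out that of the ChIP counts and takes the libraries as equally deep. An input count of 0 was found at 40 of the 10069 peaks, and Psmd11 was the only member among them.

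The nuclear activator Psme3 (chr11:101315960-101316259) had equal ChIP counts of 30 and 30, with 7 in the input. Of the chaperones, Psmg1 had the highest replicate 1 and summed ChIP counts of the members, with 77 and 40 against 13 in the input (chr16:95990682-95990981, coding exon). Its partner in assembly of the alpha ring, Psmg2, had 50, 29 and 8 counts. Psmg3 and Psmg4, which form another pair, had 29, 27 and 9 (chr5:139826741-139827040) and 26, 22 and 5 (chr13:34162974-34163273). Psmd5 had 40, 21 and 6 (chr2:34871070-34871369). Psmc3ip had 51, 38 and 10 (chr11:101095417-101095716). The raw ChIP counts of Psmg1 and Psmg2 were above those of Psmg3 and Psmg4 in both libraries, but the ratio to input in replicate 2 was 3 and 3.47 at the former and 2.89 and 4.09 at the latter, so the order did not hold for Psmg4.

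Across the 19 peaks, ChIP counts ran from 22 to 77 in replicate 1 and from 16 to 48 in replicate 2, with medians of 33 and 29. The promoter peaks had higher medians, 40 and 33, and a median input of 7 against 8 at the members. The summed ChIP count was below the promoter median of 73 at 12 of the 19 members, whose own median was 61, and the highest of them, Psmg1 at 117, stood at the 84.1 percentile of promoter peaks. The median ratio of ChIP to input was 4.12 ± 0.915 (SD, n = 2 ChIP replicates) at the members, 5.05 ± 0.664 at promoter peaks and 4.75 ± 0.505 at all peaks. On the log2 scale the median at the members minus that at promoter peaks was -0.21 in replicate 1 and -0.40 in replicate 2, and 16 of the 19 members lay below the promoter median of the ratio. The differences had the same sign in both replicates, which share the input, and were not tested, since peaks are not replicates.

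**Figure D4:**
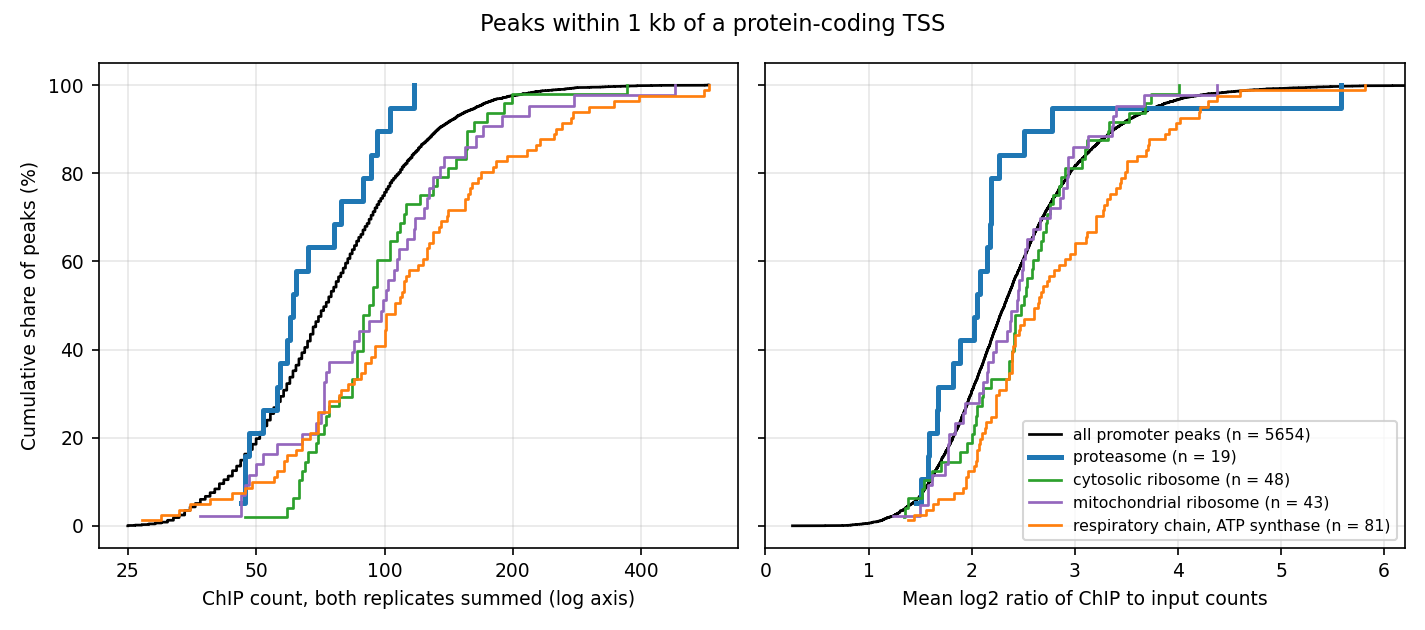
Cumulative share (%) of promoter peaks by summed ChIP count of both replicates (left, log axis) and by the mean log2 ratio of ChIP to input counts (right), for all promoter peaks (black), proteasome peaks (blue) and peaks of ribosomal and respiratory chain genes. The proteasome curve rises to the left of the black one over most of its course and ends at 117 summed counts, and its last step on the right is Psmd11, with 0 input counts.

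The other complexes did not share these low counts. Median ChIP counts were 50.5 and 42 at cytosolic ribosomal protein genes (48 peaks), 55 and 45 at mitochondrial ribosomal protein genes (43 peaks) and 61 and 47 at respiratory chain and ATP synthase genes (81 peaks). Their median ratios were 5.57 ± 0.809, 5.23 ± 0.54 and 6.4 ± 1.3 (SD, n = 2), all above the 4.12 of the proteasome. Within each ChIP library, against the same input, the median ratio was 4.76 and 3.47 at proteasome peaks, in the order of the replicates, 6.14 and 5 at cytosolic ribosomal, 5.62 and 4.85 at mitochondrial ribosomal and 7.32 and 5.48 at respiratory chain and ATP synthase peaks, so the proteasome was lower in both. These differences between groups of peaks were not tested.

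Whether the ChIP counts exceeded the input beyond the spread of the libraries was tested with edgeR's quasi-likelihood test, with p-values adjusted over all 10069 peaks by the Benjamini-Hochberg method. The depths of the whole libraries were not used, so the libraries were taken as equally deep. Under this assumption 13 of the 19 members were above input at an adjusted p under 0.05, beside 80.7% of all peaks and 4713 of 5654 promoter peaks, and 15 had an unadjusted p under 0.05, beside 85.5% of all peaks. The largest called difference with reads in the input was at Psma3, with a log2 ratio of 2.86 ± 0.42 (SE, adjusted p = 0.0311), followed by Psmd3 at 2.57 ± 0.29 (adjusted p = 0.0311). The smallest that passed was at Psmd2, at 1.50 ± 0.31 (adjusted p = 0.0379). The 6 that missed the threshold were Psma2, Psmb2, Psmc4, Psmd5, Psmg1 and Psmg2. Their adjusted p lay between 0.0568 and 0.108 and their log2 ratios between 1.57 and 2.32. All 6 were called when the ChIP replicates were scaled to each other (edgeR, adjusted p between 1.56e-07 and 0.00307). That setting called 19 members and 97.9% of all peaks. The peaks had been called on the same ChIP reads, so a ChIP count above input was built into their choice. With DESeq2 at equal depth 9 members were called, and these were in part different ones. Beside them, 65.5% of the peaks with an adjusted p were called, as DESeq2 gave none to 692 of the 10069 peaks. DESeq2 lost 7 of the 13 (Psmc2 at its first peak, Psmd1, Psmd2, Psmd13, Psme3, Psmg3 and Psmg4, adjusted p between 0.0518 and 0.125). It gained 3 of the 6 (Psmd5, Psmg1 and Psmg2, adjusted p between 0.0226 and 0.0419). If each ChIP library was assumed to be 2 times as deep as the input, 0 members and 0% of all peaks were called (edgeR), and 6 members had an unadjusted p under 0.05.

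A second fit scaled the libraries to their counts at peaks and compared each peak with the typical peak, which needs no depth. By this test no member was above or below the typical ratio, beside 1.53% of all peaks above and 0.0497% below it, and 1 member (Psmd11, log2 difference 7.12 ± 2.46) had an unadjusted p under 0.05 (edgeR, unadjusted p = 0.00386, adjusted p = 0.13), beside 10.4% of all peaks. That difference depends on the prior count, as the input of Psmd11 was 0. DESeq2 gave no adjusted p for the 19 members. Of the 19, 14 had a ratio below that of the typical peak and 5 above it, with a median log2 difference of -0.17, against 0.11 at promoter peaks and 0.02 at all peaks. The lowest were Psmd2 at -0.80 ± 0.55 (adjusted p = 0.689), Psmc4 at -0.73 ± 0.52 (adjusted p = 0.706) and Psmg3 at -0.68 ± 0.57 (adjusted p = 0.792).

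The ChIP libraries were also compared with each other, by an exact two-sided binomial test with the share expected from the totals at peaks. No member differed between the replicates after adjustment over all peaks, beside 0.0993% of all peaks. The only member with an unadjusted p under 0.05 was Psmg1, with 77 against 40 counts (exact p = 0.0120, adjusted p = 0.38). Such unadjusted values were found at 8.83% of all peaks.

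The other 33 genes had no peak within 1 kb, and 30 of them none within 10 kb. Their nearest peaks lay at a median of 54.3 kb, against 74 kb for all protein-coding genes without a promoter peak. Beside Psmb10, the genes with a peak under 10 kb were Psmb3, a standard beta subunit, at 3067 bp (81, 74 and 6 counts) and the catalytic Psmb6 at 5015 bp (44, 49 and 6 counts). Of the immunoproteasome and tissue-specific subunits, Psmb8 and Psmb9 were 66831 and 64706 bp from a peak, Psmb11 was 21930 bp and Psma8 374215 bp. The remaining genes were Psma1, Psma4, Psma5 and Psma7 of the alpha ring and Psmb1, Psmb4, Psmb5 and Psmb7 of the beta ring. In the 19S particle they were Psmc1, Psmc3, Psmc5, Psmc6, Psmd4, Psmd6, Psmd7, Psmd8, Psmd12 and Psmd14, which include the ubiquitin receptor Psmd4 and the deubiquitinase Psmd14. The others were the chaperones Psmd9 and Psmd10, the activators Psme1, Psme2, Psme2b and Psme4, the inhibitor Psmf1, and Psme3ip1. A gene without a peak is one with no interval called on the merged libraries, and its counts were not analysed here.

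**Figure D5:**
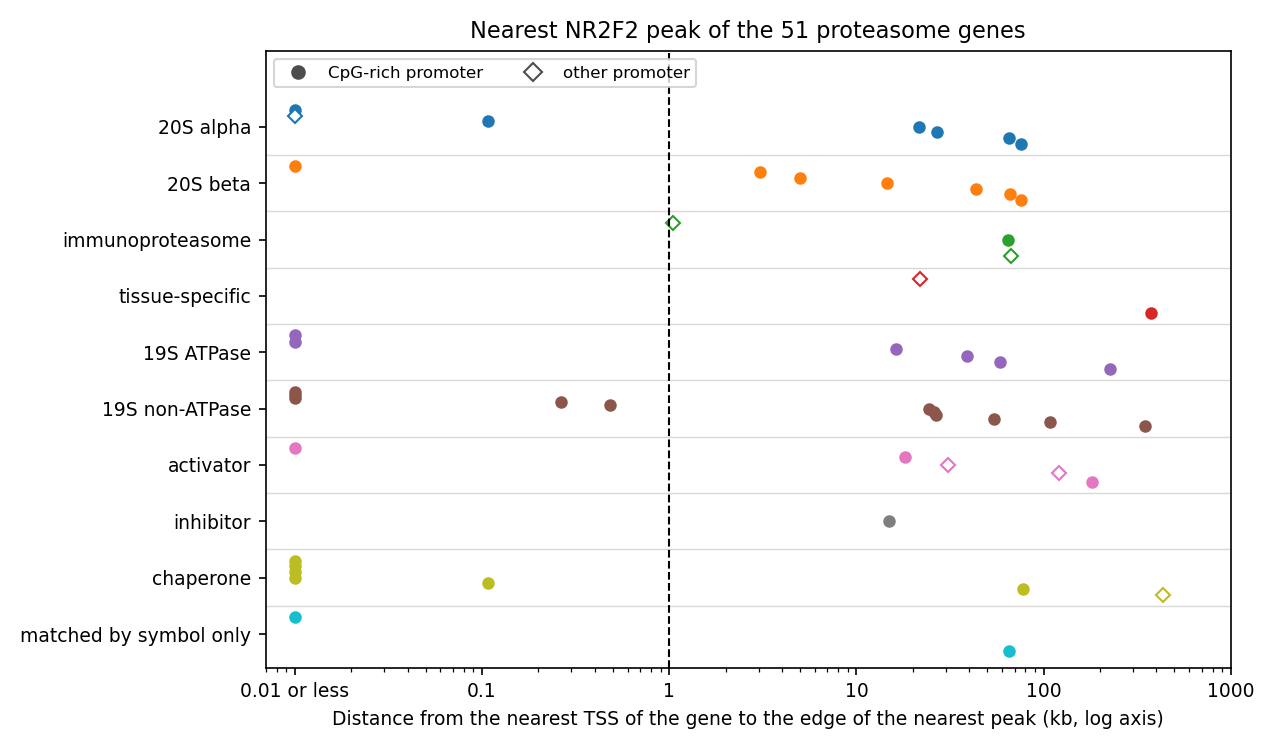
Distance from the nearest TSS of each of the 51 genes to the edge of the nearest NR2F2 peak, in kb on a log axis, by role, with filled circles for CpG-rich promoters and open diamonds for others. The dashed line marks the 1 kb limit, with 18 genes to its left and 33 to its right, and Psmb10 is the gene just beyond it.

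Base composition differed little between proteasome and other promoter peaks. Proteasome peaks had a median GC content of 64.3% and a median ratio of observed to expected CpG of 0.81, against 65.3% and 0.79 at promoter peaks. Over the 300 bp centered on the most upstream TSS, the medians were 62.7% and 0.81 for proteasome genes with a peak and 61.3% and 0.78 for those without. Over all protein-coding genes the gap was wider, 66% and 0.86 with a peak and 56.3% and 0.46 without.

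Motifs of other factors were counted in the same peaks, on both strands. Matches to CCGGAAGT or ACCGGAAG, overlapping forms of the motif of ETS factors, were present in 6 of 19 proteasome peaks (31.6%), against 8.98% of promoter peaks and 5.76% of all peaks. The following are shown as examples from a chaperone and an activator, with the match in capitals.
Psmg3 (chr5:139826873-139826902, minus strand): aacggacaggaACCGGAAGttctcgccggg
Psme3 (chr11:101316203-101316232, minus strand): cgccgctcacgCCGGAAGTtgcgtcacagc
The same ETS motif occurred in 16 of the 51 promoters of proteasome genes (31.4%), with or without a peak, and in 6.7% of all protein-coding promoters. The antioxidant response element (TGACNNNGC) was matched in 6 of 19 peaks (31.6%), against 18.5% of promoter peaks, and in 13 of 51 promoters (25.5%), against 13.8% of all promoters. The core motif of NR2F2 was in 14 of 51 promoters (27.5%), against 24.8%, and the extended motif in 0 of 51, against 1.82%. GGGCGG, bound by SP factors, was in 10 of 19 peaks (52.6%), against 57.9% of promoter peaks, and CCAAT, bound by NFY, in 6 of 19 (31.6%), against 24.4%. Over promoters the order for CCAAT was the other way, with 16 of 51 (31.4%) against 36.3%. The motif of NRF1 (GCGCATGCG) was in 2 of 19 peaks (10.5%), against 1.87%, and in 2 of 51 promoters (3.92%), against 2.15%. That of YY1 (AAGATGGCG) was in 1 of 19 peaks (5.26%), against 3.1%, and in 5 of 51 promoters (9.8%), against 2.48%. Thus ETS matches were more frequent at proteasome genes with and without a peak, and none of these shares was tested. The groups were unlike in promoter type, as 44 of 51 proteasome promoters were CpG-rich, against 11056 of 21000. Their peaks also overlapped a TSS more often, 68.4% against 40.7% of promoter peaks.

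Of 29 other genes that act with the proteasome, all of which were matched in the annotation, 18 (62.1%) had 1 promoter peak each, beside 28.1% of all protein-coding genes and 46% of those with a CpG-rich promoter. At equal depth 15 of the 18 were above input, beside 80.7% of all peaks. Nfe2l1 had 54, 59 and 9 counts, and its relative Nfe2l2, a regulator of oxidative stress genes, had 71, 50 and 3. The 19S subunit Adrm1, a ubiquitin receptor, had 62, 40 and 7, and Pomp, which guides assembly of the core, had 59, 39 and 15. Among factors that deliver substrates, Vcp had 58, 48 and 8 counts and Rad23b 40, 32 and 3. Genes of the list with no promoter peak included Sem1, Uchl5, Akirin2, Ecpas, Pithd1, Ddi2, Ubqln1, Ubqln2, Nploc4 and Ufd1.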

How the data were processed

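NR2F2 ChIP-seq was performed in E14.5 testes with 2 ChIP libraries and 1 input. The authors deposited raw counts of reads per peak for each library. According to the study's methods, 75-base single-end reads were trimmed (Trim Galore 0.6.7), mapped to mm10 with Bowtie 2, filtered, and cleared of duplicates (Picard 1.110), which caps the count a short interval can reach. Replicates were merged before HOMER 4.11.1 called peaks, and intervals were set to 300 bp. The study describes the ChIP libraries as biological replicates. The assignment of reads to peaks is not stated in the sources used.

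The members and lists were chosen with earlier results of these data known. All genes matching the symbols are accounted for, those with a peak are named with their counts, and those without are named with their distance by range, singly where it is under 10 kb or the subunit is immunoproteasomal or tissue-specific. Start sites came from 45756 curated RefSeq transcripts (26180 genes) of GRCm38, which is the mm10 assembly, and the 5 peaks on unplaced contigs were left out of gene assignment. Some genes of the list of other proteasome-related genes are counted but not reported singly here. A CpG-rich promoter (300 bp centered on the most upstream TSS) had at least 50% GC and an observed to expected CpG of at least 0.6.

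Tests used edgeR 4.0.16 (quasi-likelihood, R 4.3.3) over all 10069 peaks with Benjamini-Hochberg adjustment, at equal library sizes or with TMM factors on the counts at peaks. The single input was assumed to vary like the ChIP libraries. Each SE of a log2 ratio was derived from the test, as the absolute log2 ratio divided by the square root of the quasi-likelihood F statistic. DESeq2 1.42.0 was an alternative. Ratios had 0.5 added to each count. Totals at peaks are not depths, and floors and binomial tests cover counting error only. The fits were tested on simulated data. P-values measure the spread between these libraries. Alternatives covered the window, the TSS set, the relative depth, the scaling, the tool, a filter on input counts, the added count and each ChIP replicate left out. Other statistics used Python 3.11.15 and scipy 1.17.1.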

Additional observations from a re-analysis of the deposited data

How the results depend on the processing

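The share of proteasome genes with a peak was 35.3% with a limit of 500 bp or with midpoint distances, 37.3% with 2 kb, 33.3% with the most upstream TSS alone, 34.7% without Psmc3ip and Psme3ip1, and 25.5% with a peak over the TSS. The share of all protein-coding genes moved from 28.1% to 11.4% with a peak over the TSS and to 46% for CpG-rich genes. The calls against input depended on the relative depth and on how the fit treated the libraries. By edgeR, 13 of 19 members became 0 when the ChIP libraries were taken as 2 times deeper (6 at an unadjusted p under 0.05). They became 19 when the ChIP libraries were taken as 2 times shallower, and the shares of all peaks were 0% and 97.9%. DESeq2 called 9, beside 65.5% of the peaks to which it gave an adjusted p. Robust fitting called 19 (97.5% of all peaks) and scaling the replicates to each other 19 (97.9%). With at least 10 input counts, 5 of the 5 that could be tested were called, beside 88.5% of the 2427 peaks tested. The median ratio fell from 4.12 to 2.91 with 5 added to each count and was 3.47 without ChIP replicate 1 and 4.76 without replicate 2, where the log2 difference from promoter peaks was -0.40 and -0.21 and the difference of the median ChIP count -4 and -7 in the remaining library.

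No member was called relative to the typical peak under any alternative that gave adjusted p-values. Small differences from the typical peak changed sign without being called: Psmc3ip to 0.15 and Psmg1 to 0.16 with at least 10 input counts, Psmd5 to -0.0024 with the size factors of DESeq2 and to -0.09 without TMM, and the second Psmc2 peak to -0.05 without TMM. No paired analysis was possible because there was 1 input library, with no replicate number in its label, for 2 ChIP libraries. With a median of 8 input counts at the members, the input limits every ratio.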

Other observations

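Several proteasome genes without a promoter peak shared their nearest peak, since they lie side by side in the genome. The activators Psme1 and Psme2, which form the ring induced by interferon, had the same nearest peak, in an intron of Dcaf11, with 90 and 67 ChIP counts and 12 input counts. The beta subunits Psmb5 and Psmb11 shared one with 25 and 30 ChIP counts and 3 input counts. The counts at these peaks describe other genes' surroundings and were not assigned to the proteasome.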
